A study of Mus musculus with 31 samples.

Results

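Mature microRNAs were sequenced from the right hippocampus of wild-type (WT) C57Bl/6 J mice, and the 6 libraries of corticosterone-treated animals (WT-corticosterone) were set against the 7 libraries of animals on water (WT-water). These 13 libraries, every one the labels place in either group, were drawn from 31 in the study. The remaining 18 came from WT mice given exercise (WT-exercise, n = 5) and from mice of the same strain without the serotonin transporter (5-HTT knockout, KO), given corticosterone (KO-corticosterone, n = 2), exercise (KO-exercise, n = 5) or water (KO-water, n = 6). Treatment lasted 4 weeks. The dose and route of corticosterone, and the age and sex of the animals, are not stated in the labels. Each library was taken as 1 animal, since the labels name the replicates as biological. The study's title asks what a raised stress hormone does to small RNAs and whether this depends on serotonin.

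Corticosterone is the glucocorticoid that the adrenal gland of rodents releases under stress. It binds the glucocorticoid and mineralocorticoid receptors, which act as transcription factors, and the hippocampus is rich in both and takes part in the feedback that ends the hormone response. A mature microRNA guides the Argonaute protein to messenger RNAs, which it recognises mainly through its seed, bases 2 to 8 from the 5′ end, so that microRNAs with 1 seed share many targets. Each hairpin precursor yields a 5p and a 3p arm, of which usually 1 is loaded and kept as the guide while the other, the passenger, is degraded.

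The sequences below are shown because related microRNAs moved together or parted. They are RefSeq mature sequences on the GRCm38.p6 build, written 5′ to 3′ with the seed in capitals, and 470 of the 547 tested microRNAs had an entry. The first set holds families whose members share a seed, from AGUGCAA (miR-130a, miR-130b, miR-301a), CAGUGCA (miR-152, miR-148a, miR-148b), AGCAGCA (miR-16, miR-195a, miR-15a) and UCAAGUA (miR-26a, miR-26b) to AACAGUC (miR-132, miR-212), GGCAGUG (miR-34a, miR-449a) and ACAUUCA (the miR-181 family).
miR-130a-3p: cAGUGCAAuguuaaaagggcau
miR-130b-3p: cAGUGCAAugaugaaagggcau
miR-301a-3p: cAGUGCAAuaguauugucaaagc
miR-152-3p: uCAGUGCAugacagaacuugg
miR-148a-3p: uCAGUGCAcuacagaacuuugu
miR-148b-3p: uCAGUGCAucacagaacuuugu
miR-16-5p: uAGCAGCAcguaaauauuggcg
miR-195a-5p: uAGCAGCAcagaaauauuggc
miR-15a-5p: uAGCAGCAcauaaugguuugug
miR-26a-5p: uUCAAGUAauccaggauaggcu
miR-26b-5p: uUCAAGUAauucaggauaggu
miR-132-3p: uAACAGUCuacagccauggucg
miR-212-3p: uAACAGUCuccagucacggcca
miR-34a-5p: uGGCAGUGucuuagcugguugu
miR-449a-5p: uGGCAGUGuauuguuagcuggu
miR-181a-5p: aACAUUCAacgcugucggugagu
miR-181b-5p: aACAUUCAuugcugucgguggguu
miR-181c-5p: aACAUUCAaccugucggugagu
miR-181d-5p: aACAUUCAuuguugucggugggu

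The second set holds single microRNAs on which later results turn. MiR-126b-5p lies at chr2:26591399-26591420 on the minus strand, opposite miR-126a-3p at chr2:26591402-26591423 on the plus strand, within an exon of Egfl7, an endothelial gene. MiR-28a gave both arms, which moved in opposite directions, and miR-362-5p and miR-501-5p come from 1 cluster on chromosome X.
miR-126b-5p: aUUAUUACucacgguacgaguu
miR-126a-3p: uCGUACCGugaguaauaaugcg
miR-196b-5p: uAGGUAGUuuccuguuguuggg
miR-218-5p: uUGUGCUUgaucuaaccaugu
miR-342-3p: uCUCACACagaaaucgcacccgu
miR-873a-5p: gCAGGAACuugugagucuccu
miR-28a-3p: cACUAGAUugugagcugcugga
miR-28a-5p: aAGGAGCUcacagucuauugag
miR-331-3p: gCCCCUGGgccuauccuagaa
miR-3084-3p: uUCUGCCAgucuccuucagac
miR-7a-1-3p: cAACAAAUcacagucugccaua
miR-362-5p: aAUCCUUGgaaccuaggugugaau
miR-501-5p: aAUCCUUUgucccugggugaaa

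The total count of mature microRNAs was 1564411 to 2409803 per WT-corticosterone library and 1639753 to 4052174 per WT-water library, so the water libraries were on average the deeper ones. Of the 1966 microRNAs listed, 510 had no count in the 13 libraries. MiR-124-3p, which neurons make in large amounts, took 20.1% to 28.8% of counts in WT-corticosterone and 21.7% to 28.8% in WT-water, so the defining neuronal microRNA was abundant in each library. As a check for a library deposited more than once, libraries of a group were compared in pairs, and none of 36 pairs agreed within counting noise (chi-square over its degrees of freedom at least 23.5).

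Libraries with the same label stood apart from each other, and this touches the results that follow. Among the 18 libraries outside the comparison, 1 direction (the first principal component of log2 levels after each group's mean was removed) held 56.0% of the variance within groups. Scores of all libraries on it were computed afterwards. They ran from -7.98 to 9.12 in WT-corticosterone, with a median of 3.74, against -10.1 to -8.08 in WT-water, with a median of -9.14. WT-corticosterone 2, at -7.98, scored just above the water range, and WT-corticosterone 1, 5 and 6 scored 8.32, 7.34 and 9.12. Untreated knockout libraries split on the same direction: KO-water 1, 2 and 5 scored -8.17, -8.57 and -8.04, while KO-water 3, 4 and 6 scored 11.6, 17.3 and 15.8. A high score was therefore also found in mice on water. No label names a pool, date or dissection that follows the score.

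**Figure D1:**
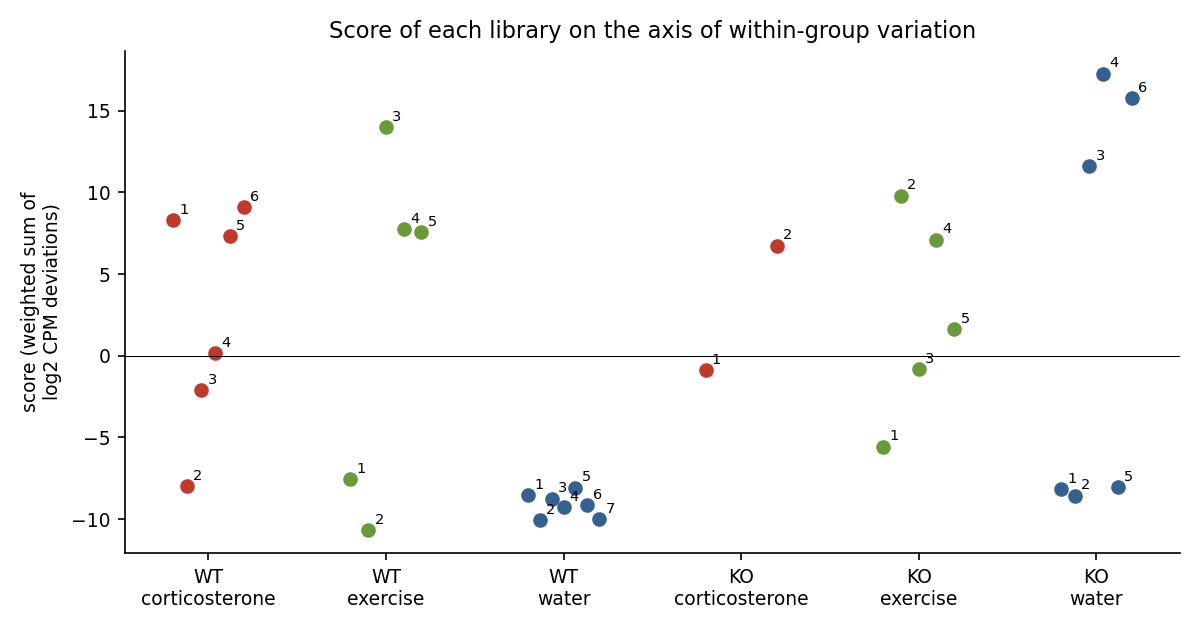
Score of each of the 31 libraries (y axis, a weighted sum of log2 CPM deviations, no unit) on the main direction of within-group variation of the 18 libraries outside the comparison, by group (x axis), with replicate numbers beside the points. The 7 WT-water libraries lie between -10.1 and -8.08, the 6 WT-corticosterone libraries spread from -7.98 to 9.12, and KO-water holds 3 libraries near the bottom and 3 at the top.

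Of 547 microRNAs with enough counts to be tested, 136 were higher and 93 lower in WT-corticosterone than in WT-water, 41.9% of those tested (edgeR quasi-likelihood test, Benjamini-Hochberg adjusted p below 0.05). The higher ones made up 24.9% and the lower ones 17% of all tested. At an unadjusted p below 0.05 the number was 273. Most changes were moderate: 71 of the 229 called microRNAs differed by more than 2-fold, and the median log2 fold change over all tested was 0.06. Without scaling factors the split turned: 101 of the calls were higher, 45.1% of them in place of 59.4%, with the median of all tested at -0.07, and no called microRNA changed direction. For 77 microRNAs, 14.1% of those tested, the groups did not overlap at all: in 41 (7.5%) each WT-corticosterone library lay above each WT-water library, and in 36 (6.58%) each lay below. In tissue RNA of this kind, fewer cells that make a microRNA and less of it per cell cannot be told apart.

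The 6 treated libraries differed in how far they lay from the water libraries. In WT-corticosterone 2, 45.6% of the 136 higher microRNAs exceeded the highest water library and 54.8% of the 93 lower ones were under the lowest. In the other 5 libraries these shares were 76.5% to 97.8% and 79.6% to 93.5%. The microRNAs counted here were called from these same libraries. A difference in response cannot be told apart from the spread within groups described above, which untreated libraries also showed. Leaving out WT-corticosterone 2 raised the calls to 150 higher and 142 lower, and leaving out WT-corticosterone 6 reduced them to 95 higher and 77 lower. Knockout libraries on water reached the same levels for many of these microRNAs: at least 1 KO-water library lay at or past the WT-corticosterone median for all but 33 of the 136 higher and all but 16 of the 93 lower ones. This sets the most extreme of 6 libraries against a median, and the share among all tested microRNAs was not computed. Of microRNAs not called, miR-301b-3p had 6 such KO-water libraries, miR-124-3p 4 and miR-29a-3p 0.

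**Figure D2:**
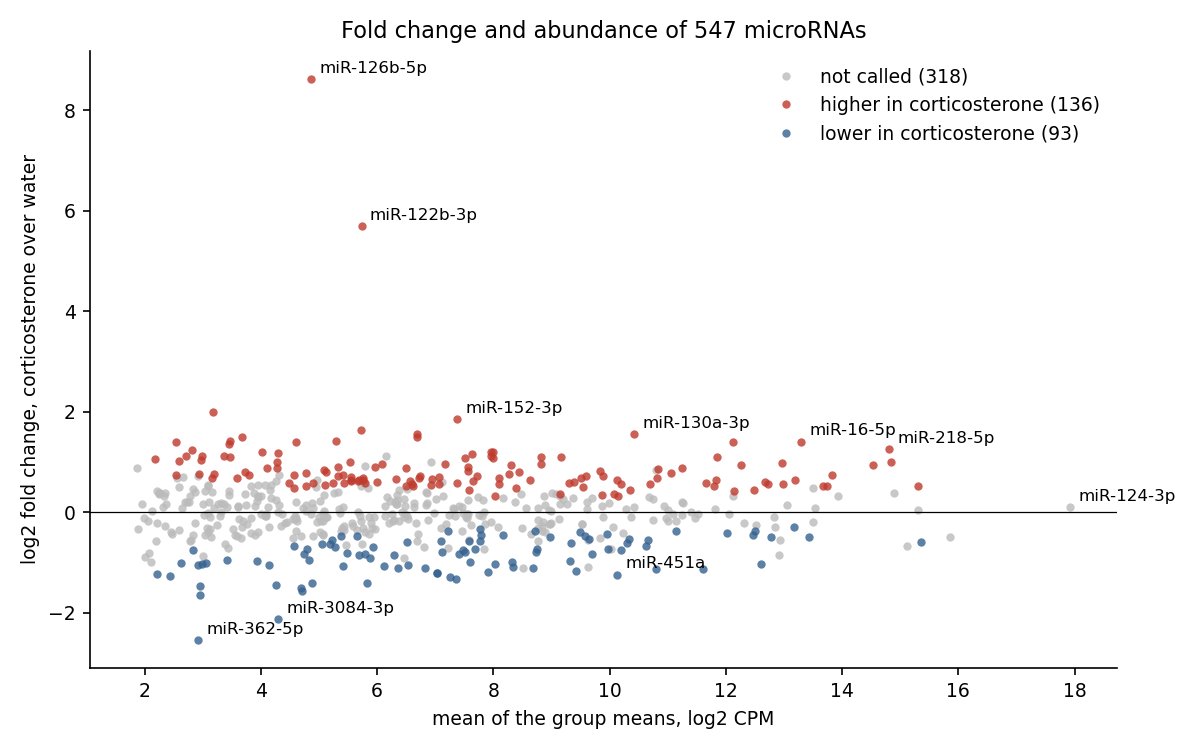
Log2 fold change of WT-corticosterone over WT-water (y axis) against mean level in log2 CPM (x axis) for the 547 tested microRNAs, with called ones coloured. The 136 higher and 93 lower microRNAs lie at all levels of abundance, mostly within 2 log2 units of 0, with miR-126b-5p and miR-122b-3p far above the rest.

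A group of 3 microRNAs was all but silent in the water libraries. MiR-126b-5p, which can be cut from the strand opposite the endothelial miR-126a, had 25, 127, 162, 114, 39 and 162 counts in the 6 WT-corticosterone libraries, against 2 counts in WT-water 4 and 0 in each of the other 6 WT-water libraries. The ratio of count rates was 595, with an exact 95% interval of 164 to 4925 that covers counting error only. MiR-122b-3p, the opposite-strand relative of the liver microRNA miR-122, had 35, 347, 247, 209, 59 and 260 counts in WT-corticosterone and 0 to 13 in WT-water, 1157 against 42 in total. MiR-196b-5p, from a hairpin within an annotated exon of the homeobox gene Hoxa9, had 4, 12, 10, 13, 10 and 30 counts in WT-corticosterone and 0 in each WT-water library. The exact 95% lower limit of the ratio of count rates was 39.6, which covers counting error only, and the microRNA stayed below the filter for testing.

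These 3 microRNAs separated the groups without overlap, also with WT-corticosterone 2 counted in. They were singled out by their counts in these same libraries. The lack of overlap and the intervals of the count rates are therefore no separate support. Scaled together with all 31 libraries, miR-126b-5p had 14.7 to 97.3 CPM (counts scaled to the library size with edgeR's cpm) in WT-corticosterone, 18.7 to 158 CPM in WT-exercise and 38.9 and 105 CPM in KO-corticosterone, against 0 to 0.53 CPM in KO-water and 0 to 0.46 CPM in WT-water. The 3 KO-water libraries with high scores, KO-water 3, 4 and 6, had 1, 0 and 0 counts of it. MiR-196b-5p had 31 and 28 counts in KO-corticosterone, against 1 count over the 6 KO-water libraries. The labels do not say whether reads were assigned by strand, so counts of miR-126b-5p and of miR-126a-3p, whose sequences overlap on opposite strands, may not be separate. The same limit holds for miR-122b-3p and miR-122. MiR-126a-3p itself was 5078 to 10792 CPM in WT-corticosterone and 4884 to 5877 CPM in WT-water.

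Of 4 tested members of the miR-130 and miR-301 family 3 rose, those shown above with the seed AGUGCAA. This made 75% called, beside 41.9% of all tested and 24.9% higher. MiR-130a-3p, known for promoting blood vessel growth, ranged from 1638 to 2685 CPM with a median of 2027 in WT-corticosterone, against 536 to 862 CPM with a median of 637 in WT-water. The treated libraries all lay above the water libraries, WT-corticosterone 2 among them. The log2 fold change was 1.56 ± 0.16 (SE, adjusted p = 4.68e-06). MiR-130b-3p was scarce, at 9.96 ± 4.95 CPM in WT-corticosterone and 4.06 ± 2.13 CPM in WT-water (SD, n = 6 and 7), and rose by 1.24 ± 0.36. MiR-301a-3p overlapped between the groups and rose by 0.51 ± 0.16, a call (adjusted p = 0.0158) that was lost without WT-corticosterone 6 (adjusted p = 0.0591). MiR-301b-3p, the fourth member, averaged 9.67 ± 2.49 CPM in WT-corticosterone and 10.1 ± 2.16 CPM in WT-water and was not called (-0.061 ± 0.22, adjusted p = 0.830).

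MiR-152-3p and miR-148a-3p, which repress the DNA methyltransferase Dnmt1, both rose, and miR-148b-3p with the same seed gave 127 ± 30.3 CPM in WT-corticosterone and 127 ± 38.6 CPM in WT-water. MiR-152-3p had 82.6 to 406 CPM with a median of 289 in WT-corticosterone, against 40.2 to 83.3 CPM with a median of 77.6 in WT-water. The lowest treated library reached just into the water range and the other 5 lay above it. The log2 fold change of 1.86 ± 0.29 (adjusted p = 0.000219) was the largest among called microRNAs above 100 CPM on average in WT-corticosterone, apart from miR-122b-3p. MiR-148a-3p rose by 0.55 ± 0.20 (adjusted p = 0.0315), a call that ended without any 1 of 10 of the 13 libraries (adjusted p = 0.0540 to 0.0897).

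The seed AGCAGCA divided. MiR-16-5p, which has been shown to repress the serotonin transporter in mouse serotonergic neurons, had 8164 to 24542 CPM with a median of 13371 in WT-corticosterone, against 4697 to 7019 CPM with a median of 5189 in WT-water. No treated library fell within the water range, and the log2 fold change was 1.41 ± 0.20 (adjusted p = 9.53e-05). MiR-195a-5p, from a separate locus, rose by 0.78 ± 0.18. MiR-15a-5p, which is cut from the same Dleu2 intron as 1 of the 2 miR-16 hairpins, averaged 1284 ± 485 CPM in WT-corticosterone and 1367 ± 124 CPM in WT-water and was not called (log2 fold change -0.09 ± 0.18). MiR-15b-5p, whose locus in Smc4 also holds a miR-16 hairpin, was not called either, at -0.70 ± 0.39.

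Abundant neuronal microRNAs were among the risers. MiR-218-5p, produced from introns of the axon guidance genes Slit2 and Slit3, had 29244 to 60088 CPM with a median of 37792 in WT-corticosterone, against 13842 to 18998 CPM with a median of 16991 in WT-water. Its lowest treated library was well above the highest water library, with a log2 fold change of 1.26 ± 0.17 (adjusted p = 5.32e-05). MiR-26a-5p and miR-26b-5p, which lie in introns of Ctdsp phosphatase genes and are not on the list of neuron-enriched microRNAs, rose by 1.00 ± 0.17 and 0.73 ± 0.18. MiR-138-5p, which limits dendritic spine growth, averaged 47522 ± 12225 CPM in WT-corticosterone and 33138 ± 3387 CPM in WT-water and rose by 0.52 ± 0.16. That call was lost in the joint fits of 3 and of 6 groups (adjusted p = 0.0607 and 0.0763). MiR-128-3p, a neuronal microRNA that restrains excitability, averaged 33561 ± 12020 CPM in WT-corticosterone and 50399 ± 4873 CPM in WT-water and fell by 0.59 ± 0.19 on the log2 scale.

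MiR-873a-5p, from an intron of the neuronal gene Lingo2, had 644 to 1068 CPM with a median of 723 in WT-corticosterone, against 283 to 409 CPM with a median of 374 in WT-water. Its groups stood far apart, at a log2 fold change of 1.09 ± 0.13 (adjusted p = 3.9e-05). MiR-346-5p, from an intron of the glutamate receptor gene Grid1, rose by 1.10 ± 0.15, and miR-129-5p, known for synaptic down-scaling in hippocampal neurons, rose by 0.94 ± 0.14. Both were higher in each treated library than in any water library. MiR-135a-5p and miR-135b-5p, reported to target the serotonin transporter, rose by 0.85 ± 0.19 and 0.58 ± 0.15 with overlap between the groups.

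MiR-132-3p and miR-212-3p come from 1 transcript that the activity-regulated factor CREB induces, and they share a seed. MiR-132-3p had 2889 to 6102 CPM with a median of 3501 in WT-corticosterone, against 2308 to 3604 CPM with a median of 2404 in WT-water. The groups overlapped through WT-water 1, the water library at 3604 CPM. The increase of 0.58 ± 0.17 was called (adjusted p = 0.0147), but not among the libraries whose sample code starts with G (0.31 ± 0.15, adjusted p = 0.145). MiR-212-3p, at 1155 to 1723 CPM in WT-corticosterone and 1073 to 1724 CPM in WT-water, covered almost the same range in both groups and was not called (0.11 ± 0.12, adjusted p = 0.482).

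Of 7 tested members of the miR-34 and miR-449 family 3 rose and none fell, 42.9% called beside 41.9% of all tested. MiR-34a-5p, a target of p53, rose by 0.34 ± 0.12 (adjusted p = 0.0305), which was lost without any 1 of 9 of the 13 libraries (adjusted p = 0.0532 to 0.120). MiR-449a-5p, known from ciliated cells, had 19.9 to 38.4 CPM in WT-corticosterone and 9.39 to 16.6 CPM in WT-water, without overlap (1.17 ± 0.20, adjusted p = 0.00042). MiR-34c-3p ranged from 14.1 to 291 CPM in WT-corticosterone and from 24.3 to 92.7 CPM in WT-water, so the treated libraries lay on both sides of the water libraries (1.55 ± 0.51, adjusted p = 0.0244). Leaving out any 1 of 7 libraries ended this call (adjusted p = 0.0552 to 0.0719). Its partner miR-34c-5p was not called (0.84 ± 0.42, adjusted p = 0.121).

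**Figure D3:**
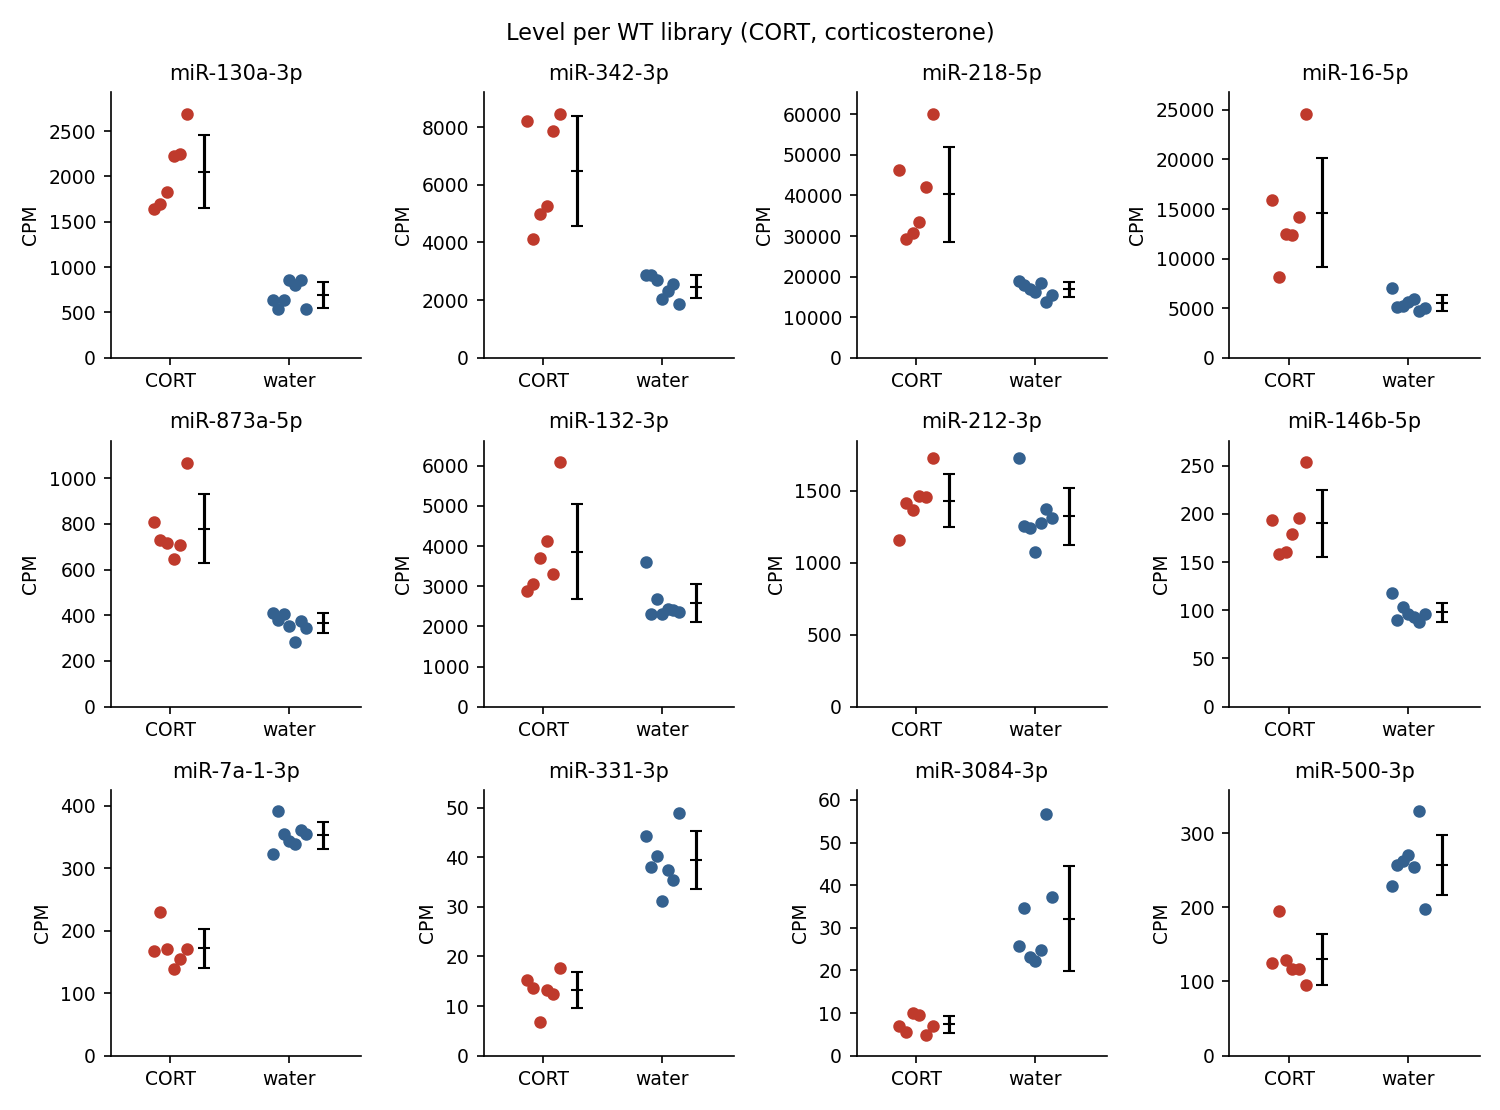
Level in CPM (y axis, from 0) of 12 microRNAs in each WT-corticosterone (red, left) and WT-water (blue, right) library, with the mean and SD as black bars (n = 6 and 7). MiR-130a-3p, miR-342-3p, miR-218-5p, miR-16-5p, miR-873a-5p and miR-146b-5p lie higher and miR-7a-1-3p, miR-331-3p, miR-3084-3p and miR-500-3p lower in each corticosterone library than in any water library, while miR-132-3p and miR-212-3p overlap.

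Further microRNAs with large increases were mostly scarce. MiR-28a-3p, miR-194-5p and miR-325-5p rose by 1.42 ± 0.21, 1.51 ± 0.24 and 1.50 ± 0.27, each without overlap between the groups. MiR-3059-5p, miR-503-3p and miR-378d rose by 1.43 ± 0.24, 1.41 ± 0.29 and 1.40 ± 0.26 with overlap. MiR-182-5p, a sensory cell microRNA that activity regulates in the retina, rose by 2.00 ± 0.57 from few counts, 6 to 62 per WT-corticosterone library and 1 to 33 per WT-water library. MiR-764-5p, hosted in an intron of Htr2c, which encodes a serotonin receptor, rose by 1.65 ± 0.47 but spread over 18.7 to 173 CPM in WT-corticosterone and 13.5 to 45 CPM in WT-water.

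Among the microRNAs that fell, 1 genomic cluster stood out by its count. The cluster of miR-362, miR-500, miR-501, miR-532 and miR-660 lies in an intron of the chloride transporter gene Clcn5 on chromosome X, and 7 of its 9 tested members fell and 1 rose, against 17% lower among all tested. MiR-362-5p, with 0 to 8 counts per WT-corticosterone library and 12 to 88 per WT-water library, had the largest decrease (-2.53 ± 0.52, adjusted p = 0.00154). MiR-501-5p fell to 2.53 to 5.02 CPM in WT-corticosterone, against 8.47 to 16.2 CPM in WT-water (-1.65 ± 0.25, adjusted p = 0.000137). MiR-500-3p, the most abundant decreasing member, had 95 to 195 CPM with a median of 121 in WT-corticosterone, against 198 to 329 CPM with a median of 257 in WT-water. The top of the treated range, WT-corticosterone 2, nearly touched the lowest water library (-0.99 ± 0.17, adjusted p = 0.000367).

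MiR-362-3p, miR-532-3p, miR-188-5p and miR-188-3p of this cluster fell by 1.11 ± 0.22, 1.05 ± 0.25, 0.62 ± 0.19 and 1.02 ± 0.28 on the log2 scale. In the first 3 of these, WT-corticosterone 2 lay within the water range. MiR-501-3p went the other way, at 46.1 to 83.9 CPM in WT-corticosterone and 27.4 to 46.7 CPM in WT-water (0.64 ± 0.17, adjusted p = 0.00821), although it comes from the same hairpin as miR-501-5p.

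Single microRNAs fell as clearly. MiR-331-3p, within an exon of Vezt, had 6.85 to 17.7 CPM with a median of 13.5 in WT-corticosterone, against 31.2 to 48.9 CPM with a median of 38.1 in WT-water. The gap between the groups was wide, and the log2 fold change was -1.57 ± 0.20 (adjusted p = 4.17e-05). MiR-7a-1-3p, the passenger strand of the Hnrnpk intronic miR-7 hairpin, had 138 to 231 CPM with a median of 169 in WT-corticosterone, against 323 to 392 CPM with a median of 354 in WT-water. Here WT-corticosterone 2 was the highest treated library, still below all water libraries (-1.03 ± 0.13, adjusted p = 3.9e-05).

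MiR-3084-3p lies inside the small nucleolar RNA Snora19 and a second annotated snoRNA, so its counts may hold fragments of those RNAs. It had 4.83 to 9.97 CPM with a median of 7.06 in WT-corticosterone, against 22.3 to 56.8 CPM with a median of 25.8 in WT-water, without overlap (-2.12 ± 0.27, adjusted p = 4.43e-05). Its other arm miR-3084-5p fell by 0.72 ± 0.26, which was lost without WT-corticosterone 4, WT-corticosterone 5 or WT-water 7 (adjusted p = 0.0700, 0.0614 and 0.0656). MiR-339-5p, miR-490-3p (from an intron of the muscarinic receptor gene Chrm2), let-7j and miR-497a-3p fell by 1.28 ± 0.18, 1.40 ± 0.20, 1.32 ± 0.19 and 1.40 ± 0.28, all without overlap. MiR-199b-5p, miR-2137 and miR-30d-3p fell by 1.45 ± 0.33, 1.46 ± 0.44 and 1.26 ± 0.44 with overlap, and the call of miR-30d-3p was lost without WT-corticosterone 1 (adjusted p = 0.0625).

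All 4 members of the miR-181 family fell, each with no overlap between the groups. Among all tested, 17% were lower, and 6.58% lay lower without overlap. MiR-181a-5p, which in neurons represses the glutamate receptor subunit GluA2, had 3817 to 5540 CPM with a median of 5015 in WT-corticosterone, against 5778 to 7312 CPM with a median of 6535 in WT-water. The treated libraries ended just short of the lowest water library, and the decrease was small (-0.45 ± 0.11, adjusted p = 0.0053). MiR-181b-5p and miR-181d-5p changed by -0.61 ± 0.10 and -0.80 ± 0.16. MiR-181c-5p showed the largest change of the 4, -1.16 ± 0.21, with 280 to 736 CPM in WT-corticosterone and 808 to 1097 CPM in WT-water. MiR-99b-5p, which shares its transcript with let-7e, fell by 0.76 ± 0.12, to 663 to 1085 CPM in WT-corticosterone against 1351 to 1761 CPM in WT-water.

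Families with 1 seed did not all move as 1. Among the tested microRNAs with a RefSeq sequence, 48 seeds had 2 or more members. Of these, 16 had 2 or more called members, which rose together in 8, fell together in 5 and went both ways in 3. Tested microRNAs without such a sequence, miR-30b-5p and miR-30d-5p among them, are not in these counts. A seed counted as rising together may therefore have a further member that fell. Among all tested, 24.9% were higher and 17% lower, and the split to be met from those shares was not computed. Of the 10 let-7 and miR-98 guide strands, regulators of growth and differentiation, 5 rose and none fell, 50% called beside 41.9% of all tested. Let-7j, which is not on this list, fell as given above (log2 fold change -1.32). Let-7c-5p and let-7b-5p rose by 0.95 ± 0.20 and 0.98 ± 0.18, without overlap between the groups, and let-7a-5p, let-7d-5p and let-7e-5p rose by 0.53 ± 0.18, 0.60 ± 0.17 and 0.56 ± 0.15 with overlap. In these 5, WT-corticosterone 6 was far above the other treated libraries: let-7c-5p reached 51214 CPM there. The call of let-7a-5p ended without any 1 of 7 libraries (adjusted p = 0.0514 to 0.0945). In the miR-30 family, miR-30c-5p rose by 0.75 ± 0.14 and miR-30b-5p by 0.44 ± 0.14, and miR-30d-5p fell by 0.48 ± 0.12. The call of miR-30b-5p ended without any 1 of 8 libraries (adjusted p = 0.0513 to 0.0839).

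The 2 arms of a hairpin start as 1 molecule, so they were compared with each other. Both arms were tested for 170 hairpins, and in 24 both were called in the same direction, in 11 in opposite directions, in 71 only 1 was called and in 64 neither. The balance of the arms, 5p minus 3p in log2 CPM, differed between the groups in 54 hairpins (exact permutation test over the 1716 arrangements of the libraries, two-sided, adjusted p below 0.05, of which the smallest possible unadjusted p is 0.000583). This comparison was added after the data had been seen.

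MiR-28a, from an intron of Lpp, was 1 of the 11. MiR-28a-3p rose to 10 to 23.3 CPM in WT-corticosterone, against 4.73 to 7.25 CPM in WT-water, and miR-28a-5p fell to 47.8 to 68.5 CPM in WT-corticosterone, against 78.7 to 115 CPM in WT-water. Both arms separated the groups fully. The balance was 1.77 in WT-corticosterone and 3.88 in WT-water, a difference of -2.11 (exact permutation test, adjusted p = 0.00431). The lymphocyte microRNA miR-150 moved to its 5p arm, with a balance of 8.37 in WT-corticosterone and 5.93 in WT-water (exact permutation test, adjusted p = 0.00431): miR-150-5p rose by 1.10 ± 0.23 and miR-150-3p fell by 1.50 ± 0.23. MiR-708 moved to its 5p arm as well, 6.79 in WT-corticosterone against 4.87 in WT-water, and miR-501 and miR-106b moved to their 3p arms, -3.64 against -1.57 and 4.14 against 5.50. For miR-342 only the 3p arm was called, and its balance differed by -1.46.

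Lists of cell type microRNAs were counted to describe which signals moved with the groups. The list of microglia and immune cells had 6 risers and 0 fallers among 10 tested, 60% called beside 41.9% of all tested and 24.9% higher, with a median log2 fold change of 0.71 against 0.06 over all tested. MiR-342-3p, the most abundant of them, lies in an intron of Evl and had 4119 to 8447 CPM with a median of 6555 in WT-corticosterone, against 1862 to 2864 CPM with a median of 2563 in WT-water. The treated libraries formed an upper and a lower cluster of 3 each, both above the water libraries (1.40 ± 0.18, adjusted p = 4.49e-05). MiR-146b-5p, a damper of innate immune signalling, rose by 0.96 ± 0.14 without overlap. The myeloid microRNA miR-223-3p and the blood cell microRNA miR-142a-3p rose by 1.08 ± 0.34 and 0.68 ± 0.17, and the call of miR-223-3p was lost without WT-corticosterone 5 or 6 (adjusted p = 0.0578 and 0.0723). The summed level of the list was 8545 to 20356 CPM in WT-corticosterone and 6628 to 9022 CPM in WT-water.

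Of 9 vessel microRNAs 5 rose and none fell, 55.6% called beside 41.9% of all tested: miR-126b-5p, miR-139-5p (0.95 ± 0.15), miR-126a-5p (0.65 ± 0.15), miR-126a-3p (0.56 ± 0.16) and miR-145b (1.13 ± 0.32), whose call was lost without WT-corticosterone 6 (adjusted p = 0.0508). The miR-126a and miR-126b risers come from 1 locus. Of the 9 vessel microRNAs, 6 had a log2 fold change above 0. MiR-143-5p, miR-143-3p and miR-145a-5p changed by -0.62, -0.40 and -0.20 and were not called. The summed level of the vessel list was 18885 to 33218 CPM in WT-corticosterone and 16252 to 22141 CPM in WT-water. The red blood cell list fell in sum, to 602 to 1193 CPM in WT-corticosterone against 1249 to 2366 CPM in WT-water, through its main member. MiR-451a, which erythroid cells make by Argonaute 2 cleavage, had 436 to 1056 CPM in WT-corticosterone and 1128 to 2211 CPM in WT-water (-1.24 ± 0.22, adjusted p = 0.000548). MiR-144-5p from the same cluster, and miR-486a-5p, rose by 0.89 ± 0.22 and 0.59 ± 0.22, so red blood cell microRNAs went both ways. The call of miR-486a-5p was lost without any 1 of 11 libraries (adjusted p = 0.0523 to 0.124). The part of blood or vessel content in the other results was not tested.

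Of 8 oligodendrocyte microRNAs 2 rose and 2 fell, with a median of -0.087, and of 6 astrocyte microRNAs 2 fell, both of the miR-181 family. The shares called were 50% and 33.3%, beside 41.9% of all tested. MiR-338-3p, which promotes oligodendrocyte differentiation, had 1035 to 3674 CPM with a median of 1613 in WT-corticosterone, against 4036 to 4992 CPM with a median of 4257 in WT-water (-1.13 ± 0.26, adjusted p = 0.00356). MiR-219a-5p, its partner in that process, had 117 to 1577 CPM with a median of 302 in WT-corticosterone, against 967 to 1242 CPM with a median of 1018 in WT-water. WT-corticosterone 2 was above all water libraries and the other 5 treated libraries were below them all, and the difference was not called (-1.09 ± 0.47, adjusted p = 0.0724). The summed level of the oligodendrocyte list was 7126 to 11817 CPM in WT-corticosterone and 11631 to 13480 CPM in WT-water. MiR-29a-3p, of the astrocyte list, was 17030 to 42531 CPM in WT-corticosterone and 45586 to 54388 CPM in 6 WT-water libraries, but 4405 CPM in WT-water 5, and was not called (-0.67 ± 0.40, adjusted p = 0.188). Without WT-water 5, 4 of the 6 astrocyte microRNAs fell, beside 99 lower among the 538 tested in that setting.

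Choroid plexus and ciliated cell microRNAs varied more between libraries than between groups, and 2 of 14 rose, 14.3% called beside 41.9% of all tested. The median log2 fold change of the list was 0.58 against 0.06 over all tested, with 11 of the 14 above 0. MiR-204-5p, the main choroid plexus microRNA, ranged from 5403 to 26950 CPM in WT-corticosterone and from 4848 to 20486 CPM in WT-water and was not called. The summed level of the list was 8082 to 34899 CPM in WT-corticosterone and 6985 to 27058 CPM in WT-water. Of 26 neuron-enriched microRNAs 9 rose and 4 fell, a called share of 50% beside 41.9% of all tested. Of 23 activity-regulated ones 8 rose and 6 fell, a called share of 60.9%.

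MicroRNAs listed for targeting the receptor for glucocorticoids gave 3 higher and 3 lower among 12, 50% called beside 41.9% of all tested. MiR-142a-3p, miR-130b-3p and miR-335-3p rose, the last by 0.53 ± 0.20 (adjusted p = 0.0455), a call that ended without any 1 of 11 libraries (adjusted p = 0.0526 to 0.129). MiR-433-3p, miR-101a-3p and miR-29c-3p fell by 0.61 ± 0.16, 0.49 ± 0.16 and 1.02 ± 0.33, of which miR-433-3p did not overlap between the groups, at 379 to 652 CPM in WT-corticosterone and 663 to 1035 CPM in WT-water. MiR-29c-3p was no longer called without WT-water 6 (adjusted p = 0.0518). MiR-124-3p, the most abundant microRNA reported to repress this receptor, averaged 258034 ± 39959 CPM in WT-corticosterone and 239147 ± 36196 CPM in WT-water and was not called (0.11 ± 0.15, adjusted p = 0.576).

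Of 30 microRNAs reported in rodent stress or glucocorticoid studies 13 rose and 2 fell, with a median of 0.36. The share called was 50% beside 41.9% of all tested, and the risers included miR-218-5p, miR-16-5p, miR-26a-5p, miR-135a-5p, miR-708-5p and miR-132-3p described above. MiR-101a-3p and miR-19b-3p fell, miR-19b-3p by 0.37 ± 0.12. MiR-19b-3p has been reported to repress the adrenergic receptor gene Adrb1. The 10 listed as targeting the serotonin transporter included 4 that rose and 0 that fell, a called share of 40% that is close to the 41.9% of all tested.

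The imprinted Dlk1-Dio3 locus on chromosome 12, whose microRNAs are transcribed from the maternal chromosome in brain, held calls in both directions. Its miR-379/miR-410 cluster had 12 higher and 14 lower among 58 tested members, with a median of -0.06, and its miR-127/miR-433 cluster 3 higher and 8 lower among 22, with a median of -0.30. The shares called, 44.8% and 50%, lay near the 41.9% of all tested. MiR-409-3p rose by 1.20 ± 0.20 and miR-300-3p and miR-379-5p fell by 0.72 ± 0.12 and 0.47 ± 0.11, all 3 without overlap between the groups. MiR-382 gave both directions from 1 hairpin: miR-382-5p rose by 0.44 ± 0.17 and miR-382-3p fell by 1.18 ± 0.29. The call of miR-382-5p ended without any 1 of 11 libraries (adjusted p = 0.0731 to 0.139). MiR-127-5p fell by 0.97 ± 0.22.

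**Figure D4:**
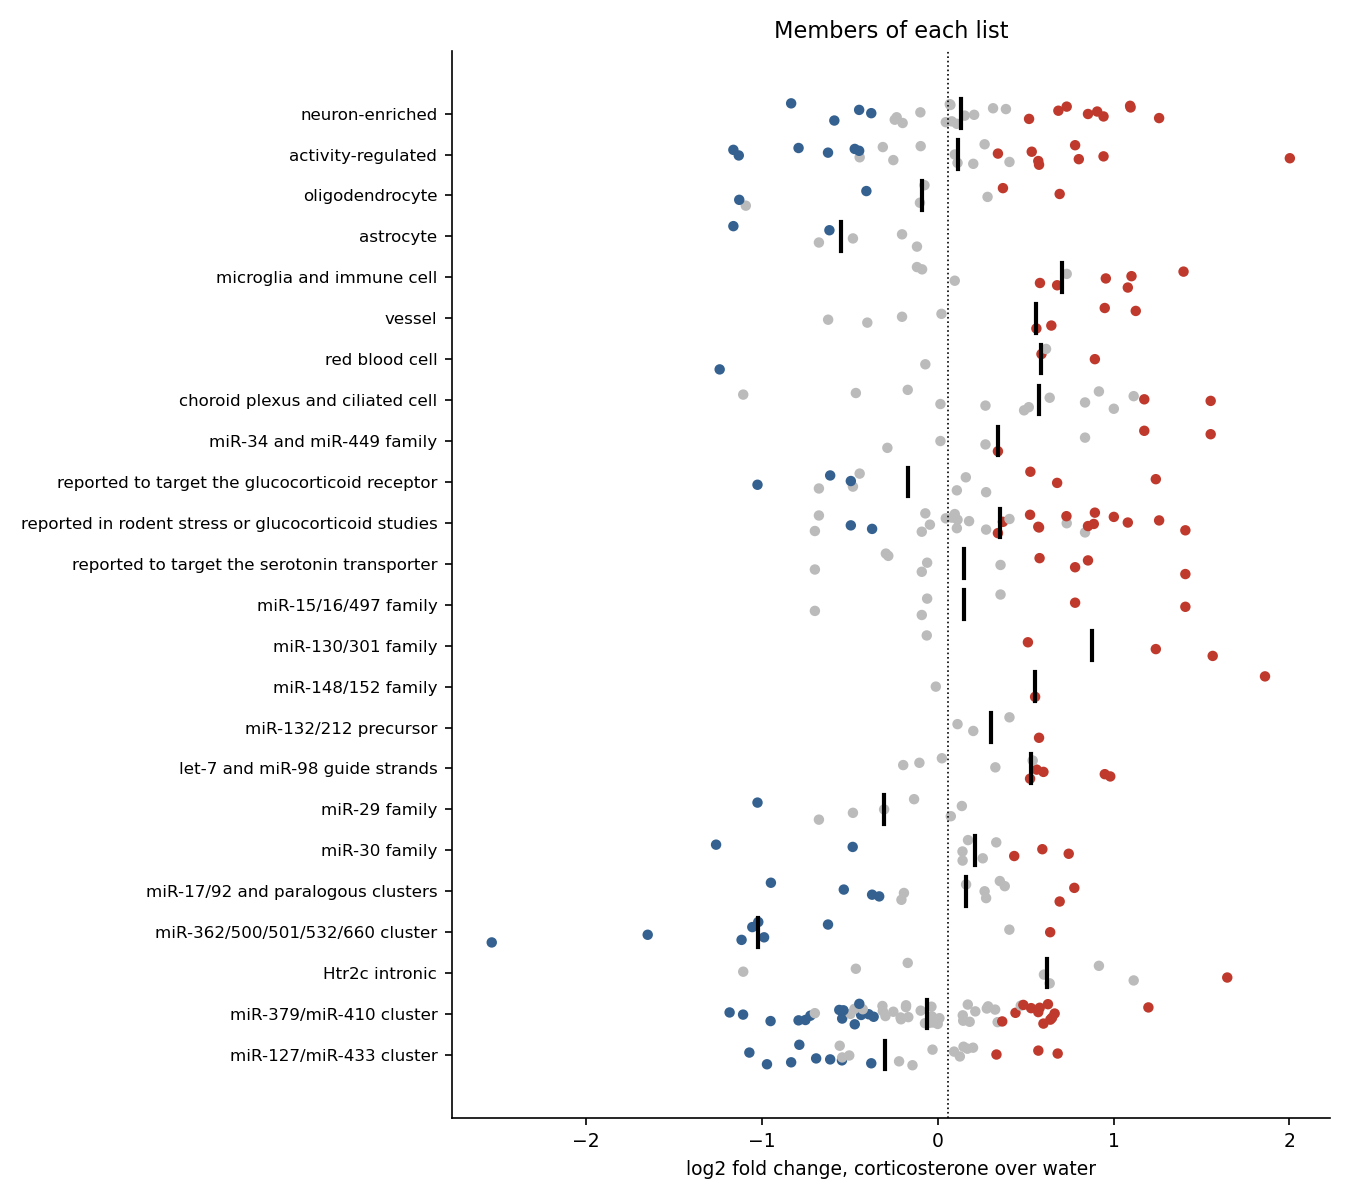
Log2 fold change of WT-corticosterone over WT-water (x axis) of each tested member of the lists (y axis), coloured where called (red higher, blue lower), with the list median as a black bar and the median of all tested microRNAs, 0.06, as a dotted line. Points beyond the axis (miR-126b-5p) are not drawn. The cluster in Clcn5 lies almost wholly to the left, with 7 of 9 members lower, and the family of miR-130a to the right, with 3 of 4 higher. Among all tested, 17% were lower and 24.9% higher.

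Some calls were less stable than others. Among the libraries whose sample code starts with G, 5 against 5, 24 of the 94 calls named in the text were lost. Beside those qualified above, they included miR-130b-3p, miR-188-5p, miR-144-5p, miR-182-5p, miR-128-3p, miR-138-5p, let-7d-5p, let-7e-5p, miR-708-5p, miR-135b-5p, miR-126a-3p and miR-145b. What this letter stands for is not stated in the labels.

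Since libraries differed along the direction described above, the comparison was repeated with each library's score as a covariate, a fit added after the data had been seen. It called 30 microRNAs, 5.48% of those tested, 19 higher and 11 lower. Of these 23 were also called without the score, and 7 were not. Of the 229 called without the score, 179 kept the sign of their fold change and 50 had the opposite sign. The score itself was called for 157 microRNAs. The water libraries covered a narrow range of scores, so in this fit the slope of the score came mostly from the treated libraries, and treatment and score were only partly separable.

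Among the 23, miR-126b-5p and miR-122b-3p had log2 fold changes of 9.23 ± 0.82 and 6.54 ± 0.66 with the score in the fit. MiR-324-3p, miR-130a-3p and miR-873a-5p stood at 1.26 ± 0.20, 1.28 ± 0.22 and 0.85 ± 0.18, and miR-3059-5p at 1.82 ± 0.33. MiR-218-5p and miR-342-3p passed narrowly at 0.60 ± 0.16 and 0.61 ± 0.17 (adjusted p = 0.0483 and 0.0496), less than 1 log2 unit where they had exceeded 1. On the lower side, miR-331-3p, miR-3084-3p, miR-7a-1-3p and miR-181b-5p stood at -1.86 ± 0.33, -1.94 ± 0.50, -0.79 ± 0.17 and -0.67 ± 0.15. MiR-181a-5p, miR-379-5p, miR-99b-5p, miR-150-3p, miR-339-5p, miR-93-3p, miR-17-5p, miR-346-5p, let-7b-3p and miR-3084-5p were also among the 23.

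Other results named above did not pass in this fit. MiR-16-5p had 0.53 ± 0.19 (adjusted p = 0.131), miR-152-3p 0.31 ± 0.26 (adjusted p = 0.556), miR-338-3p -0.06 ± 0.17 (adjusted p = 0.881) and miR-150-5p -0.09 ± 0.20 (adjusted p = 0.855). MiR-132-3p had 0.26 ± 0.26 (adjusted p = 0.621) and miR-138-5p -0.080 ± 0.16 (adjusted p = 0.836). MiR-15a-5p, not called before, was among the 7 that were called with the score only, at 0.61 ± 0.15. Of the cluster in Clcn5 no member was called with the score, and the median of its 9 members was -0.33 in place of -1.02. Its largest decreases kept most of their size or exceeded it, with a wider error: miR-501-5p had -1.46 ± 0.44 (adjusted p = 0.0648) and miR-362-5p -3.17 ± 1.08 (adjusted p = 0.113). The microglia and immune cell list had a median of -0.18 in place of 0.71, and 1 called member. The vessel list had a median of -0.19 in place of 0.56, also with 1 called member. For the choroid plexus and ciliated cell list the median was -1.01 in place of 0.58, with 0 called members. In the miR-34 and miR-449 family the median was -0.91 in place of 0.34, and among the let-7 and miR-98 guide strands 0.22 in place of 0.53, with 0 called members in either.

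**Figure D5:**
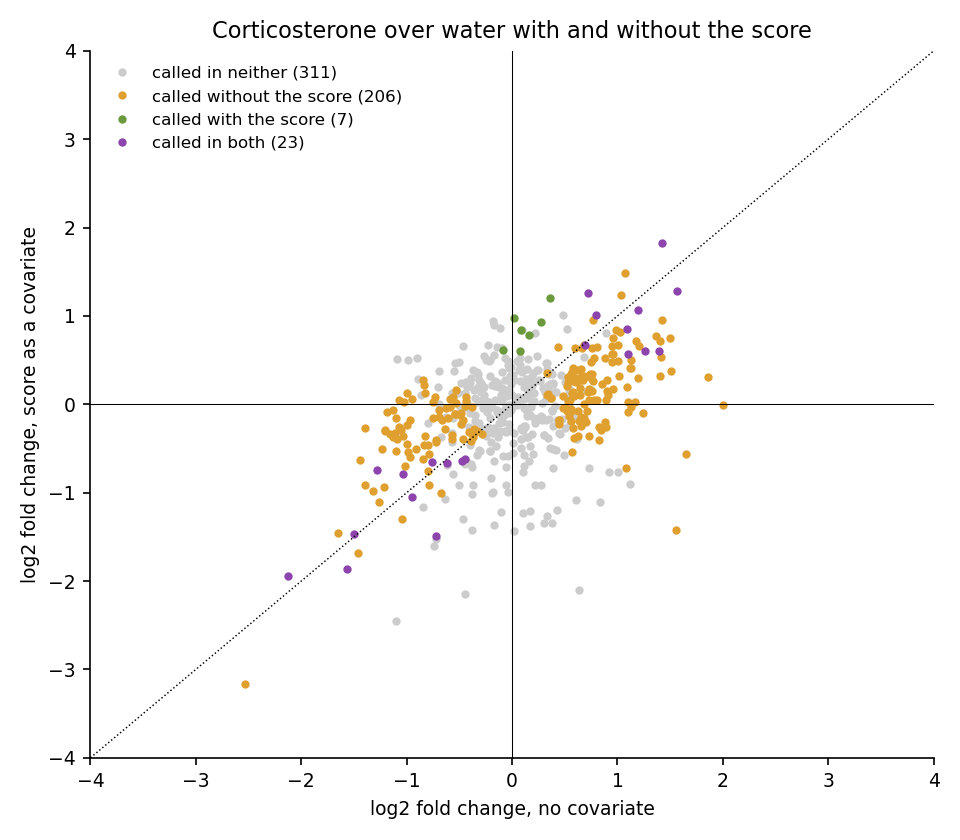
Log2 fold change of WT-corticosterone over WT-water for each tested microRNA without (x axis) and with (y axis) the library score as a covariate, coloured by which fit called it. MiR-126b-5p and miR-122b-3p, called in both, lie beyond the axes. Of the 206 microRNAs called only without the score, 192 lie nearer to 0 on the y axis than on the x axis. The 23 called in both keep their sign, some close to the dotted line of equal values and others, such as miR-218-5p and miR-342-3p, well off it.

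Corticosterone was also set directly against exercise in a fit of the 3 WT groups, because both share their water libraries. Of 565 microRNAs tested 1 was called (0.177%), and 29 had an unadjusted p below 0.05. MiR-212-3p was lower in WT-corticosterone than in WT-exercise, with 1157 to 1529 CPM and a median of 1382 in WT-corticosterone, against 1987 to 2444 CPM and a median of 2032 in WT-exercise. The groups did not overlap, and the log2 fold change was -0.70 ± 0.12 (edgeR, adjusted p = 0.00693). It was no longer called without WT-corticosterone 1, WT-corticosterone 3 or WT-exercise 4 (adjusted p = 0.0514, 0.0508 and 0.0577), and without WT-corticosterone 6 there were 2 calls. MiR-132-3p, from the same transcript, had 2895 to 5414 CPM in WT-corticosterone and 4519 to 6373 CPM in WT-exercise and was not called (-0.61 ± 0.16, adjusted p = 0.330). MiR-130a-3p, miR-873a-5p and miR-342-3p differed between these groups by 0.10 ± 0.18, -0.025 ± 0.17 and -0.27 ± 0.33. MiR-7a-1-3p and miR-331-3p differed by -0.19 ± 0.20 and -0.12 ± 0.29. A missed threshold does not show that corticosterone and exercise acted alike.

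The test of whether the response to corticosterone depended on genotype called 0 of 630 microRNAs in edgeR (0%) and 0 in DESeq2, with 65 and 73 at an unadjusted p below 0.05. With a component of the residuals as a covariate, edgeR called 49 higher and 54 lower, 16.3% of those tested. That component was taken from the residuals of this same fit, so it lowers the residual variance by construction. The count therefore cannot be read as a separate result on genotype, and each other setting called 0. KO-corticosterone held 2 libraries, which limits what could be detected, and a missed threshold does not show that the responses were alike. The sample codes of both KO-corticosterone libraries start with H, while each other group in this test holds codes with G and with H. MiR-130a-3p had 2039 and 2306 CPM in KO-corticosterone and 375 to 1410 CPM in KO-water, a pair of ranges that did not overlap. MiR-873a-5p likewise had 711 and 756 CPM in KO-corticosterone, against 308 to 556 CPM in KO-water, and miR-7a-1-3p had 115 and 151.8 CPM in KO-corticosterone, against 193 to 350 CPM in KO-water. By contrast miR-342-3p had 4513 and 6094 CPM in KO-corticosterone, inside the 2379 to 14421 CPM of KO-water, where KO-water 3, 4 and 6 were far above KO-water 1, 2 and 5. Its interaction term was 1.83 ± 0.66 (edgeR, adjusted p = 0.447).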

How the data were processed

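The authors deposited whole-number read counts per mature microRNA for pairs of groups, and the values were used as counts that had not been normalized. Small RNA enriched from total RNA was sequenced on the Ion Torrent platform, per the labels' protocols. The submitters' processing notes name limma 3.54.1, Subread with featureCounts, BWA and cutadapt 2.3 and the build GRCm38 (mm10), with no order or role given. Libraries in more than 1 table had identical columns.

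Columns were matched to samples by the code in the labels. Tests used edgeR 4.0.16 in R 4.3.3 (filterByExpr, TMM, robust quasi-likelihood fit, Benjamini-Hochberg over all microRNAs tested), on the 13 libraries for corticosterone against water, on the 3 WT groups for the contrast with exercise, and on 4 groups for the genotype interaction. Standard errors come from the F statistic. CPM values use TMM-scaled library sizes of the 13 libraries, or of all 31 where other groups are given. The scripts were tested on simulated data. Those counts were drawn without a direction of variation shared within groups, so the test does not cover the spread described above. Replicate numbers were not treated as pairs, because same-numbered libraries did not deviate together.

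Alternatives were DESeq2 1.42.0 and its size factors, no scaling, limma-voom (limma 3.58.1), no filter or at least 10 CPM, the replicate block, the code letter (G or H, meaning not stated), a residual component, joint fits and leaving out each library. The score covariate used a prior count of 2, and arm balances a pseudocount of 1 CPM (0.5 as an alternative). The barcode kit has fewer barcodes than there were libraries, so more than 1 pool was run, and no label names it.

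The members and lists were chosen with earlier results of these data known. Named microRNAs were drawn from the 12 largest changes and 8 smallest p in each direction, the 10 most abundant, the 2 most abundant and all called members of each list, those with 0 counts in 1 group and at least 50 in the other, both arms of a named hairpin, and seed relatives of a named microRNA.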

Additional observations from a re-analysis of the deposited data

Results flagged for a closer look

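In 208 pairs of a named microRNA and a group, 29 had 1 library far from the others by Dixon's test at the 95% level, where chance marks about 1 in 20. The pairs are not independent, because the microRNAs were measured in the same libraries and several move together. A few libraries can therefore make up many of the 29. WT-corticosterone 2 was the highest treated library for miR-7a-1-3p (231 CPM, next 170.7), miR-339-5p (143, next 91.6), miR-500-3p (195, next 128), miR-362-3p (102.2, next 48.6), miR-532-3p (116, next 57.9), miR-188-5p (43.4, next 26.8) and miR-127-5p (828, next 431), each time toward the water libraries. WT-corticosterone 2 was also the highest for miR-219a-5p (1577, next 559.6), there above all water libraries. It also had the lowest score of the treated libraries on the direction of within-group variation.

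WT-corticosterone 6 was the highest treated library for let-7a-5p (23614 CPM, next 16521), let-7b-5p (15991, next 10755), let-7c-5p (51214, next 30250.5), let-7d-5p (11519, next 7975), let-7e-5p (13594, next 9825), miR-501-3p (83.9, next 59.9) and miR-93-3p (25.3, next 18.7).

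Among the water libraries, WT-water 1 stood high for miR-195a-5p (2024 CPM), miR-132-3p (3604), miR-150-3p (63.0), miR-30d-5p (15343) and let-7e-5p (8899), and low for miR-362-3p (100.4). WT-water 6 stood high for miR-3084-3p (56.8) and miR-338-3p (4992), and low for miR-148a-3p (53.2), miR-26a-5p (12371), miR-30b-5p (2587) and miR-382-5p (729). WT-water 5 held 4405 CPM of miR-29a-3p, against 45586 CPM in the next lowest water library. WT-water 4 held the 2 counts of miR-126b-5p in that group (0.446 CPM). MiR-212-3p differed between WT-corticosterone and WT-exercise by -0.70 on the log2 scale in the direct test.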

How the results depend on the processing

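No microRNA called higher or lower in WT-corticosterone changed direction under another scaling or tool, another filter, the code letter, a joint fit or the loss of any 1 library, while 50 of 229 did so with the score of within-group variation. The number of calls was 228 with DESeq2 size factors, 247 in DESeq2, 228 in limma-voom, 231 with the code letter as a term, 180 in the fit of 3 WT groups, 98 higher and 73 lower in the fit of 6 groups, and 99 higher and 75 lower with the replicate block. Same-numbered libraries of the 2 groups correlated from -0.28 to 0.10, so the numbers pair nothing, and the block was used only here: it also left 0 calls against exercise and 0 for the interaction. Leaving out 1 library gave 172 to 292 calls, 95 to 150 higher and 77 to 142 lower. Libraries with the code letter G alone (5 against 5) gave 135 calls, of which 72 were higher, with 87 in place of 148 called places in the lists. The score as a covariate left 30 calls (19 higher, 11 lower) and 24 list places. A component of the residuals as a covariate gave 281 calls, of which 129 were lower, and each of the 229 calls was kept with its sign. Such a component lowers the residual variance by construction, so this larger count cannot be read as a separate result. Without a filter 204 microRNAs were called, and with a mean of at least 10 CPM 205. Of the 94 called microRNAs named, 29 lost the call under 1 or more of these settings, the score and single libraries left aside: 24 with the letter G alone, 16 with the block and 1 to 14 under each of the other settings that ended any. Against exercise, calls numbered 0 without a filter and 0 to 2 when 1 library was left out, all lower. For the interaction, a component of the residuals of that same fit as a covariate gave 49 higher and 54 lower, 16.3% of those tested. Each other setting gave 0. The component lowers the residual variance by construction, and the cause was not tested. The count of 54 hairpins with a changed arm balance ranged from 42 to 79. Signs turned for uncalled microRNAs near 0: miR-212-3p was -0.010 and miR-124-3p -0.020 without scaling factors, miR-124-3p lay between -0.032 and 0.16, miR-148b-3p between -0.19 and 0.10 and miR-301b-3p between -0.25 and 0.0025 when 1 library was left out, and miR-148b-3p was 0.011 in limma-voom and 0.076 with the block. With the score they turned for miR-301a-3p (-0.045), miR-130b-3p (-0.10), miR-148a-3p (-0.075), miR-34c-3p (-1.43), miR-34c-5p (-1.10), miR-150-5p (-0.090), miR-486a-5p (-0.38), miR-182-5p (-0.0081), miR-764-5p (-0.56), miR-138-5p (-0.080), miR-335-3p (-0.065), miR-708-5p (-0.26), miR-223-3p (-0.72), miR-126a-3p (-0.19), miR-145b (-0.034), miR-204-5p (-0.58) and miR-382-5p (-0.22), and to above 0 for miR-128-3p (0.062), miR-29c-3p (0.025), miR-219a-5p (0.52), miR-148b-3p (0.24), miR-301b-3p (0.16) and miR-15a-5p (0.61). Low counts limit miR-362-5p, miR-501-5p, miR-182-5p and miR-196b-5p.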
